A study of Mus musculus with 18 samples.

Results

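Messenger RNAs enriched in the neural tube (NT) over the forelimb bud (FL) of the mouse embryo at E11.5 were examined for their ribosome occupancy in both tissues. A gene was taken as NT-enriched where its mean log2(RNA-Seq normalized reads + 1) over 3 NT libraries lay at least 3 above that over 3 FL libraries, an 8-fold difference, and its mean NT RNA-Seq value was at least 300 normalized reads. Of about 11200 genes measured in both tissues, 226 (2.01%) met this rule. The members were thus chosen by the RNA-Seq contrast between the tissues, so their mRNA difference is a description. The question was whether the ribosome-protected fragments (RPFs) followed, amplified or buffered the difference in mRNA.

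NT and FL were microdissected from the same E11.5 embryos of FVB females, with cycloheximide, which stalls ribosomes on mRNA, in the dissection medium. The NT was taken between the hindlimb level and the rhombomeres, freed from the somites, and either dissociated with papain or, in some experiments, snap frozen. Cell suspensions were divided between Ribo-Seq, which sequences the mRNA fragments covered by ribosomes, and RNA-Seq of poly(A) RNA. Each of the 4 conditions has 3 libraries, described by the study as biological replicates, and a further 3 Ribo-Seq and 3 RNA-Seq libraries come from GFP+ cells sorted from E11.5 embryos that carried T-Cre, active in the mesodermal lineage, and the mT/mG reporter (R26-mTmGflox/+; Tg(T-cre)1LWD/J/+). In a bulk tissue, fewer cells of a type and less RNA per cell cannot be told apart, and a member listed at a low value in FL may come from few cells there.

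The number of RPFs on a coding sequence depends on how much mRNA there is and on how many ribosomes each mRNA carries. Translational efficiency (TE) divides the former quantity by the mRNA level, so on the log2 scale the RPF difference between 2 tissues is the sum of the mRNA difference and the TE difference. A TE difference of 0 means that RPFs follow the mRNA, a positive value that the RPF difference exceeds the mRNA difference, and a negative value that it is smaller. The early spinal cord is rich in neurofilament, tubulin and motor proteins, in guidance receptors such as those of the Robo family, and in homeodomain proteins that set the position of cells along the body axis.

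Symbols were at hand for 74 of the 226 members (32.7%), and only those are named. The pairs of identifier and symbol come from tables in which the study listed genes by their TE, so named members are not a fair sample of all members. The median TE difference (log2, NT minus FL) was 0.78 over the named members and 0.11 over the other 152, and 35 of the 74 (47.3%) but 146 of the 152 (96.1%) lay within 1 of 0. Statements on the members as a group therefore rest on all 226. Miat, a member with a symbol, is annotated in GENCODE as a lincRNA with no coding length, and its values are included in all counts.

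Sequences around the annotated start codon are shown for the 5 named members with the highest and the 5 with the lowest TE difference among those of 1 sign in all replicates and averaging 100 or more normalized reads in Ribo-Seq, and for Phf21b, added because it passed the TE test, since ribosomes commit to a coding sequence there. They are 24 bases of the principal GENCODE transcript (release M21, GRCm38), 5′ to 3′ on the coding strand, with the start codon in capitals. The first 6 have an estimated TE difference above 0 and the last 5 one below 0, but of the 11 only Map3k13, Phf21b and Rtn2 passed the TE test.
Map3k13 (chr16:21891957-21891980, + strand): cctcatggcacaATGgccaaccct
Slco5a1 (chr1:12990484-12990507, - strand): attttaagagccATGgacgaaggg
Hcn3 (chr3:89160048-89160071, - strand): gtgagggcaatcATGgaggaggag
Chl1 (chr6:103641959-103641982, + strand): cctttctgaggaATGatggaattg
Ptprz1 (chr6:22875815-22875838, + strand): accgggctggagATGcgaatcctg
Phf21b (chr15:84855707-84855730, - strand): caagttgcggcgATGgagctgcaa
Rtn2 (chr7:19282820-19282843, + strand): ccgaggggggccATGgggcaggtc
Ccdc64 (chr5:115731548-115731571, - strand): cgcgcgcgggccATGtccgccttc
Hoxc4 (chr15:103034711-103034734, + strand): ctccagaaattaATGatcatgagc
Hoxb4 (chr11:96318758-96318781, + strand): tcccagaaattaATGgctatgagt
Gadd45g (chr13:51846768-51846791, + strand): gtggatcgcacaATGactctggaa
Counting the A of the start codon as position 1, a purine at position -3 and a G at position 4 mark a favourable context. A purine stood at position -3 in 9 of the 11, against 84.6% of 20474 GENCODE principal transcripts, and a G at position 4 in 6 of the 11, against 49.6%. Hoxc4 and Hoxb4 lacked the purine. Where the transcript counted by the authors starts elsewhere, its context differs, and nothing is read from these matches about how well a start is used.

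The Ribo-Seq libraries of replicate 3 stood apart from the others. Over all genes, Pearson's r of log2 values was 0.98 between FL Ribo-Seq replicates 1 and 2 but 0.89 and 0.90 between these and replicate 3. FL Ribo-Seq replicate 1 correlated with FL RNA-Seq replicate 1 at 0.73 and replicate 3 at 0.90. In NT, replicates 1 and 2 correlated at 0.99 and both with replicate 3 at 0.93. Depth ranged from 12967893 to 31993255 reads on genes in NT and FL Ribo-Seq and from 24555103 to 33061460 in RNA-Seq, and a member had a median of 66 reads in an FL Ribo-Seq library and 3057 in an NT Ribo-Seq library. Where leaving out replicate 3 changes the TE call of a named gene or of a list, that fit is given as well.

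The labelled tissues were checked with markers. All 3 of 17 NT markers that could be matched (Nes, Fabp7, Dcx) had higher RPFs in NT, and all 5 of 27 limb mesenchyme markers (Hoxd13, Hoxd11, Msx1, Lum, Pdgfra) had higher RPFs in FL. Fabp7 and Dcx are members, chosen for more mRNA in NT, so of the 3 NT markers only Nes lies outside the rule's choice. RPFs were higher in FL for 2 of 3 somite and muscle genes, the single surface ectoderm gene, 4 of 6 erythroid genes, 3 of 13 endothelial genes and 6 of 11 macrophage genes, with 1 endothelial gene higher in NT. Of 18 markers of sensory ganglia, neural crest and Schwann cell precursors 2 were matched, Ntrk2, a member here with higher RPFs in NT, and Erbb3, with higher RPFs in FL. Their summed RNA-Seq level was 2892 to 3439 normalized reads in the NT libraries and 2155 to 2162 in FL, neither was at 0 in any library, while 1 of the 3 somite and muscle genes was at 0 in an NT Ribo-Seq library. The part of such cells in the NT values was not tested.

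RPFs were higher in NT for 225 of the 226 members (99.6%), by limma on log2(normalized reads + 1) with a 2-fold minimum and a Benjamini-Hochberg adjusted p under 0.05, against 17.8% of all genes tested. In the same number, 225, all 3 NT Ribo-Seq libraries lay above all 3 FL libraries, which held for 21.1% of all genes. The exception in both counts was Rtn2. By the same test RPFs were higher in NT for 232 of 235 genes with mRNA higher in NT by 2 to 3 (bins given below). They were higher in FL for 97 of 97 genes chosen by the mirror rule, which exchanges the tissues. The high share is therefore not particular to the members. The RPF libraries were not used by the rule, but they were made from the same tissue collections as the RNA-Seq libraries.

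The median RPF difference was slightly larger than the median mRNA difference. Over the 226 members the median mRNA difference was 3.98 (15.8-fold, quartiles 3.45 to 5.03, range 3.00 to 7.18) and the median RPF difference 4.53 (23.1-fold, quartiles 3.69 to 5.37, range 0.32 to 8.05), both log2, NT minus FL. Across the members the 2 differences had a Pearson's r of 0.77 (n = 226 genes, which share libraries and are not independent replicates). The plot of RPF against mRNA differences shows the members around the line of equal differences.

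**Figure D1:**
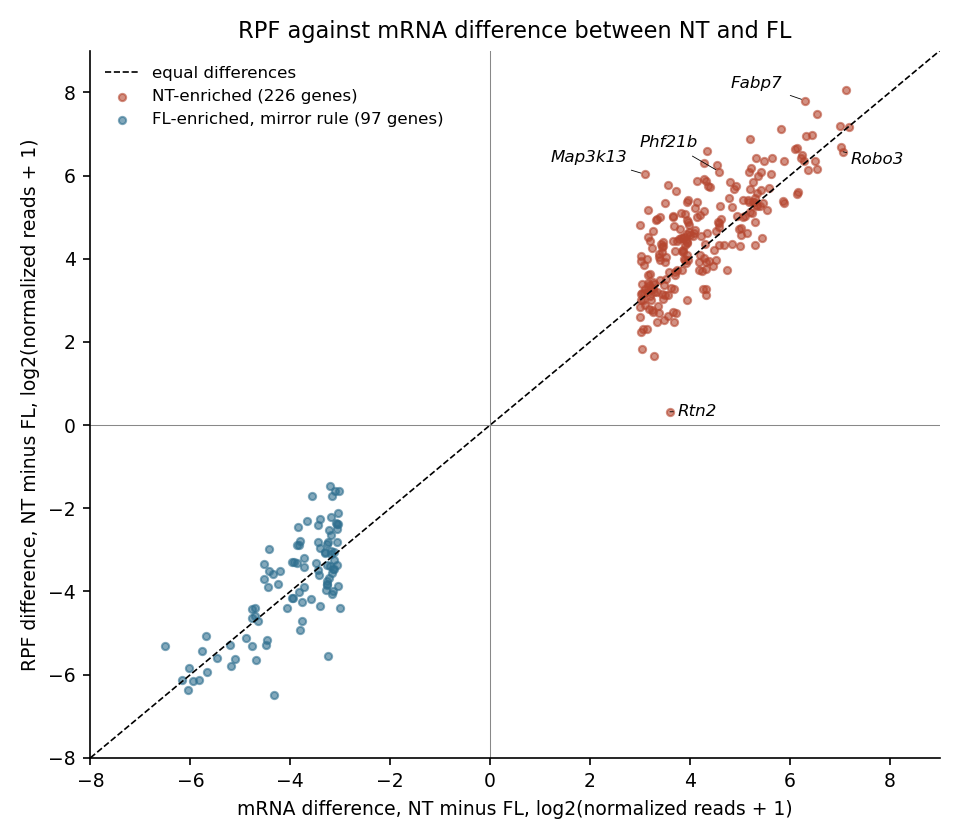
RPF difference (y axis) against mRNA difference (x axis), both NT minus FL in log2(normalized reads + 1), for the 226 NT-enriched genes and for 97 FL-enriched genes chosen by the mirror rule; each point is a gene and the dashed line marks equal differences. Members scatter on both sides of the line, and Rtn2 lies near an RPF difference of 0 at an mRNA difference of 3.6.

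The TE difference was small for most members and uncertain for each. Its median was 0.19 (1.14-fold, quartiles -0.26 to 0.78) against -0.01 over all genes (quartiles -0.53 to 0.57), 181 of the members (80.1%) lay within 1 of 0 against 79.6% of all genes, and 37 (16.4%) lay at 1 or above and 8 (3.54%) at -1 or below, against 12.8% and 7.64% of all genes. The median half-width of the 95% confidence interval of a member's TE difference was 0.97, without adjustment for the number of genes. For a single member a TE change under about 2-fold was thus not detectable with these libraries. After adjustment larger differences also failed, such as that of Slco5a1 at 2.24 (limma, adjusted p 0.29). A member that was not called may therefore still differ in TE. In 58 members (25.7%) the TE difference was above 0 in all 3 replicate numbers, against 14.7% of all genes, and in 20 (8.85%) it was below 0 in all 3, against 14.6%. Above 0 in all 3 were also 27.7% of genes with mRNA higher in NT by 2 to 3 (bins given below). It was 26.8% in the FL-enriched genes of the mirror rule and 12.9% where mRNA differed by less than 1. At 1 or above lay 23.8%, 13.4% and 12.7%, in the same order. The share above 0 in all 3 is therefore not particular to the members. The mRNA contrast within these values is the one the rule used, and they are given as a description.

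By the interaction test of library type with tissue (limma, 2-fold or more, adjusted p under 0.2), TE was higher in NT for 2 members (0.885%), Map3k13 and Phf21b, against 0.276% of all genes, and higher in FL for 1 member (0.442%), Rtn2, against 0.125%. Since the rule used the mRNA contrast of this interaction, nothing is read from the counts. At an unadjusted p under 0.05, 37 members had higher TE in NT, against 9.33% of all genes, and 8 had higher TE in FL, against 7.6%. Without replicate 3 the same adjusted rule called 55 members higher in NT (24.3%, against 22.3% of all genes) and 31 higher in FL (13.7%, against 20.7%), so replicate 3 decides how many members are called. On recovered reads, edgeR called 3 members higher in NT and 1 higher in FL, against 0.187% and 0.16% of all genes, and DESeq2 21 and 7, against 2.55% and 5.08%. With a replicate block, over all conditions or within tissue, limma called 0 members higher in NT, against 0.0445% and 0.0267% of all genes, and the calls of Map3k13 and Phf21b were both lost (37 members were higher in NT at an unadjusted p under 0.05). The 1 member called higher in FL was Rtn2 under either block, against 0.0089% of all genes in each.

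The replicate numbers differed in how far RPFs parted from mRNA. The median TE difference over members was 0.17 in replicate 1 (quartiles -0.59 to 1.16), 0.04 in replicate 2 (-0.79 to 0.94) and 0.36 in replicate 3 (-0.09 to 0.78). It lay above 0 in 129, 114 and 157 of the 226 members, and in 48.2%, 48.0% and 53.0% of all genes. The SD over members was 1.45, 1.16 and 0.76 in the same order, and Pearson's r between the mRNA and the RPF difference was 0.37, 0.65 and 0.85. Across members, the TE difference in replicate 1 correlated with that in replicate 2 at r = 0.67, but with that in replicate 3 at r = -0.17, and replicates 2 and 3 at r = -0.06 (n = 226 genes). In these values, members with a large TE difference in replicates 1 and 2 did not tend to have one in replicate 3.

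**Figure D2:**
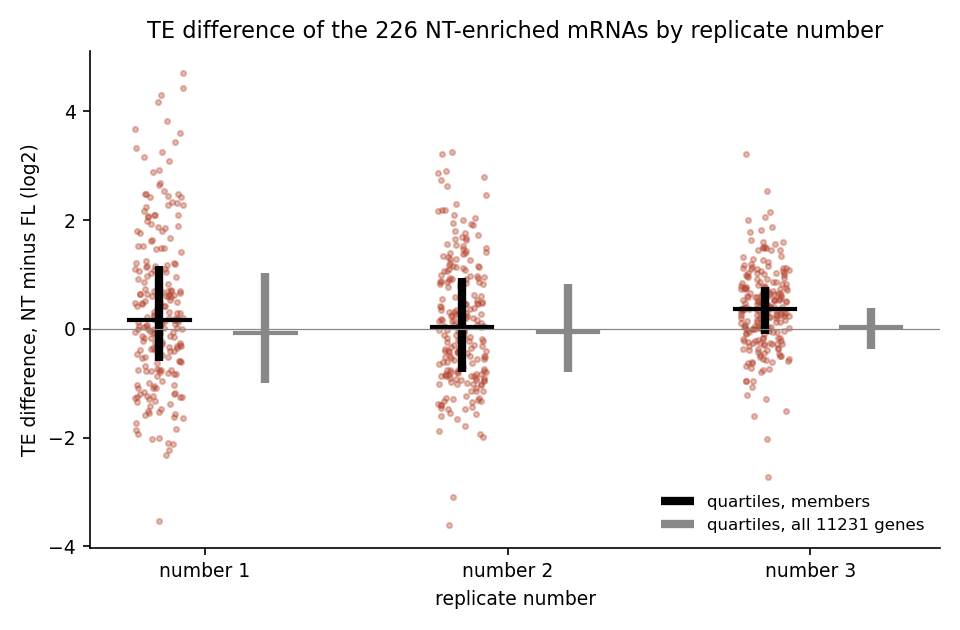
TE difference (log2, NT minus FL, y axis) of each of the 226 members in each replicate number (x axis); points are genes, thick bars the quartiles and horizontal lines the median, in black for members and in grey for all genes. The members' SD is 1.45 in replicate 1, 1.16 in replicate 2 and 0.76 in replicate 3, and the members' median is 0.17, 0.04 and 0.36.

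Genes chosen without a replicate number were also followed in that number alone, where neither RNA-Seq value had entered the choice. Choosing with replicates 2 and 3 gave 247 genes, whose median differences in replicate 1 were 3.81 for mRNA, 4.42 for RPFs and 0.31 for TE. The 223 genes chosen with replicates 1 and 3 had 4.09, 4.45 and 0.07 in replicate 2, and the 220 chosen with replicates 1 and 2 had 4.31, 4.54 and 0.40 in replicate 3. The TE difference was above 0 in 60.3%, 52.0% and 71.8% of these genes. In the held-out number RPFs were higher in NT for 247 of 247, 222 of 223 and 219 of 220 genes.

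Genes with mRNA differences of 1 or more in either direction gave TE medians of similar size. Among genes with at least 300 normalized reads in the tissue with more mRNA, the median TE difference (log2, NT minus FL) was 0.24 where mRNA was higher in NT by 1 to 2 (558 genes), 0.29 where by 2 to 3 (235 genes) and 0.19 in the members. It was -0.01 where mRNA differed by less than 1 (7614 genes). On the FL side it was 0.19 where mRNA was higher in FL by 1 to 2 (545 genes), 0.19 by 2 to 3 (187 genes) and 0.12 in the 97 FL-enriched genes of the mirror rule, whose median differences were -3.72 for mRNA and -3.59 for RPFs. On the FL side a value above 0 means that RPFs were less FL-enriched than the mRNA, while in the members it means that they were more NT-enriched. The quartiles of all bins overlapped, and differences between bins were not tested.

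**Figure D3:**
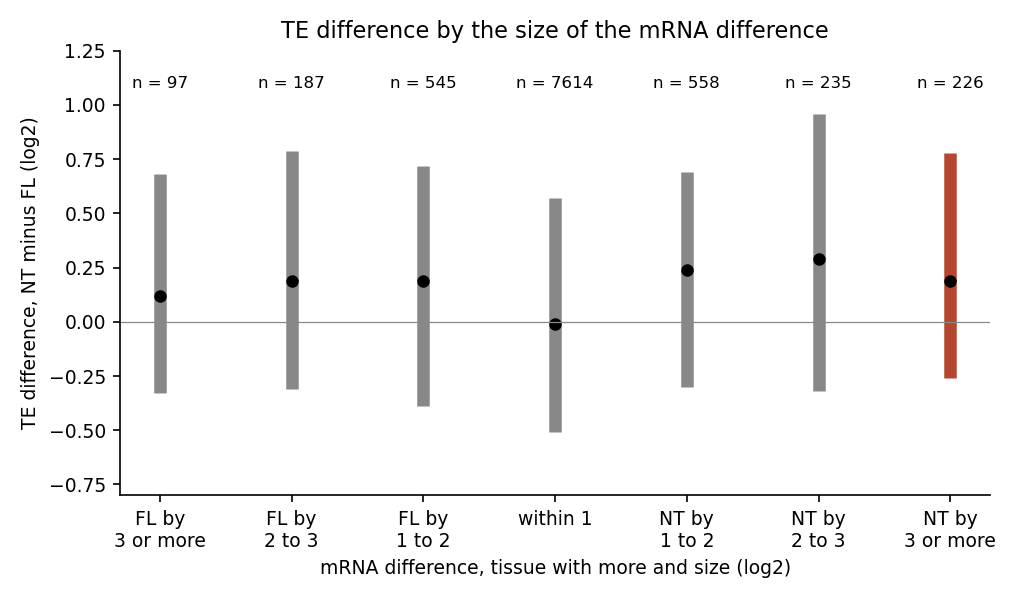
TE difference (log2, NT minus FL, y axis) by bins of the mRNA difference (x axis, log2); dots are medians, bars quartiles over genes, and n the genes in each bin, with the NT-enriched members in red. Medians lie between -0.01 and 0.29, and the members' quartiles, -0.26 to 0.78, overlap those of every other bin.

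TE was also set against the all-gene median of each library pair. The members' median log2 TE was 0.26 in NT (quartiles -0.38 to 0.71), with 138 of 226 above 0, and -0.05 in FL (quartiles -0.84 to 0.67), with 109 above 0. The median SD over 3 replicates was 0.37 in NT and 0.62 in FL. In the mesoderm, whose libraries the rule did not use, 220 members were measured and their median log2 TE was -0.01 (quartiles -0.84 to 0.54), beside a median RNA-Seq level of 306 normalized reads against 783 over all 12064 genes of that table.

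TE-low genes of the mesoderm, those at least 3-fold below the median at an adjusted p under 0.05 in limma, included 29 of the 220 members (13.2%), against 10.9% of all genes. TE-high genes, by the same rule above the median, included 6 (2.73%), against 1.17%. The low members include Robo3 (log2 TE -2.50, adjusted p 3.7e-06 in limma), Rundc3a (-2.52, 1.3e-05) and Srcin1 (-2.48, 9.2e-06), and the high members are Gpm6a, Ednrb, Tubb2b, Dcx, Tubb2a and Cxcr4, with 2.28 for Tubb2b and 1.78 for Dcx. Tubb2a and Cxcr4 were picked for naming after their values were seen. All 35 of these members have a symbol, because the study's TE tables supplied the symbols. The low members also include the lincRNA Miat (-2.92, adjusted p 3.5e-06 in limma).

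**Figure D4:**
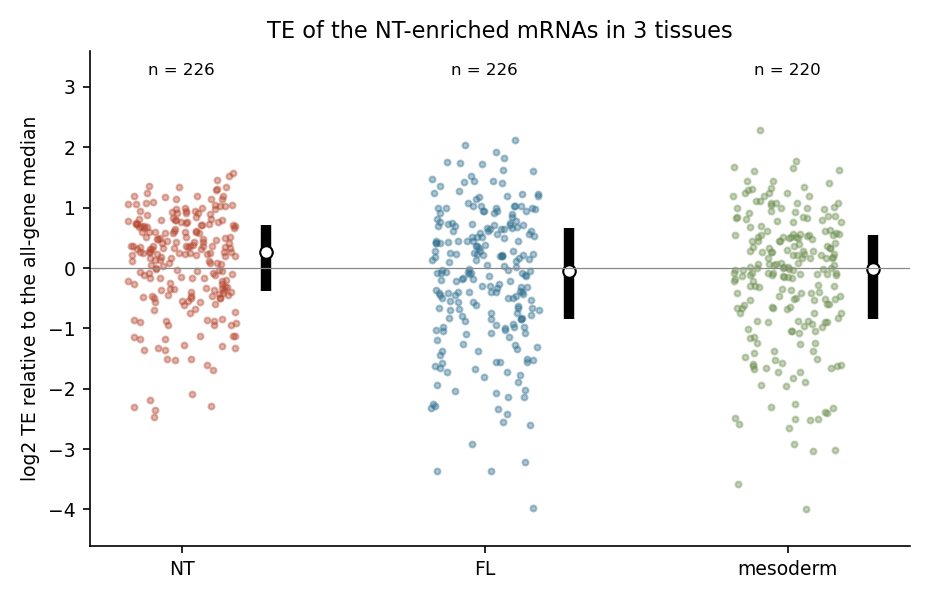
log2 TE relative to the all-gene median of the tissue (y axis) for the NT-enriched members in NT (n = 226), FL (n = 226) and mesoderm (n = 220); each point is a gene, the bar to its right spans the quartiles and the open circle is the median. Medians are 0.26, -0.05 and -0.01, and the quartiles of the 3 tissues overlap.

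Among named members, the largest mRNA differences were those of Robo3, Ina, Fabp7, Rundc3a and Nefm. Robo3, a receptor that lets commissural axons cross the midline (chromosome 9, 37415669 to 37433246, - strand), had 28072, 24388 and 49613 normalized reads in NT RNA-Seq and 365, 158 and 240 in FL, a 134-fold difference. Its RPFs were 9784, 10281 and 15598 in NT against 221, 256 and 31.4 in FL. FL replicate 3 was the low value, and the groups did not overlap. The RPF difference was 6.57 ± 0.62 (log2, SE, adjusted p 2.6e-06), 94.7-fold. Its TE difference was -0.80, -1.94 and 1.23 in replicates 1 to 3, with no common sign.

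Fabp7, a fatty acid binding protein of radial glia (chromosome 10, 57784881 to 57788450, + strand), had 3054, 6069 and 4186 normalized reads in NT RNA-Seq and 102.5, 24.8 and 57.3 in FL. RPFs were 9218, 9343 and 8134 in NT against 54.5, 36.2 and 29.9 in FL. No value of either tissue came near the other, and the RPF difference was 7.80 ± 0.42 (222-fold, adjusted p 1.8e-08). Its TE difference of 1.49 ± 0.60 did not pass (adjusted p 0.29). Rundc3a, a RUN domain protein, had an mRNA difference of 6.17, an RPF difference of 5.6 ± 0.36 and a TE difference of -0.56 ± 0.51 (adjusted p 0.49). Without replicate 3 the latter was -1.08 ± 0.39 and was called higher in FL (adjusted p 0.047).

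**Figure D5:**
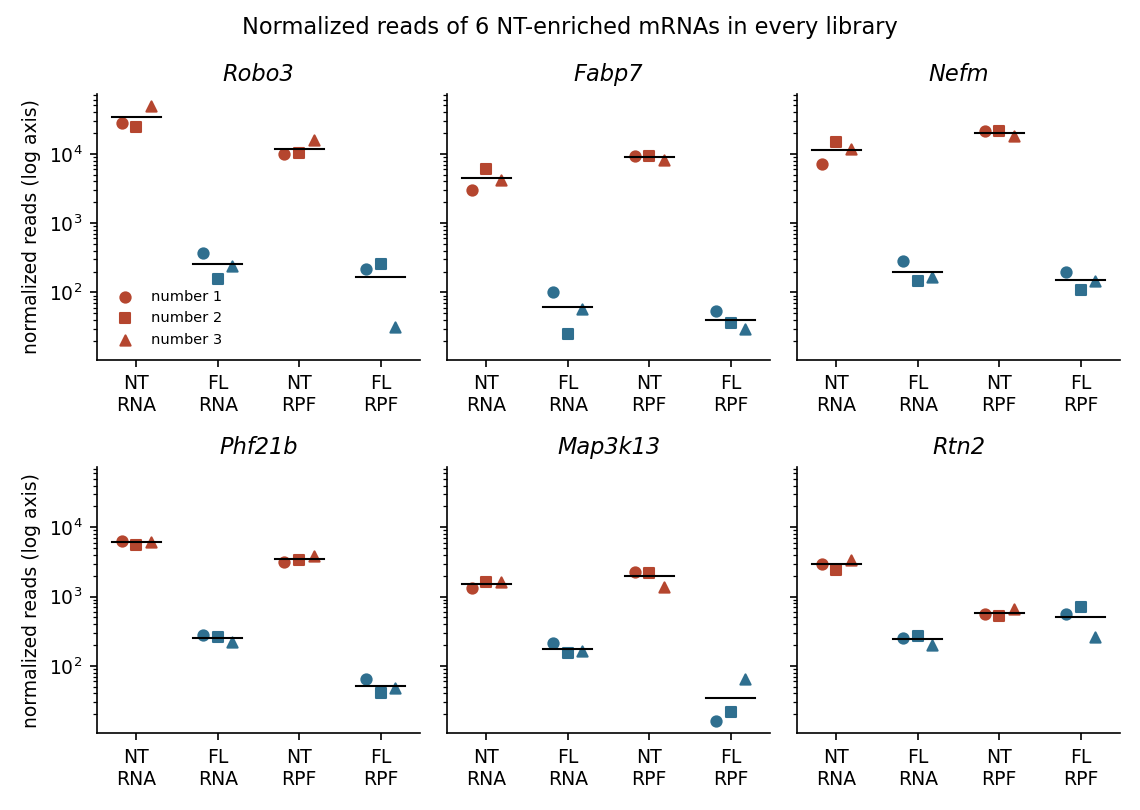
Normalized reads (y axis, log scale) of 6 members in every NT (red) and FL (blue) library of RNA-Seq and Ribo-Seq; symbols mark replicate numbers 1 to 3 and bars the mean of 3. NT lies above FL in every panel and assay except the RPFs of Rtn2, where the tissues overlap at 526 to 658 and 258 to 712 normalized reads.

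Among cytoskeletal and axonal transport genes, 22 of 58 listed genes could be matched and 8 are members, all with RPFs higher in NT. Ina and Nefm encode neurofilament subunits. Nefm (chromosome 14, 68082590 to 68124846, - strand) had 21426, 21533 and 17923 RPFs in NT and 196, 107 and 148 in FL, a difference of 7.11 ± 0.32 (138-fold, adjusted p 7.2e-09) beside an mRNA difference of 5.82. Ina, part of whose coding exons overlaps the gene Nt5c2, had an RPF difference of 7.48 ± 0.40 (179-fold). In both genes the TE difference was above 0 in all 3 replicates (0.78 to 2.10 in Nefm and 0.59 to 1.5 in Ina) but did not pass (adjusted p 0.29 and 0.34). Without replicate 3, Nefm was called higher in NT (1.55 ± 0.57, adjusted p 0.048) and Ina was not (0.64 ± 0.73, adjusted p 0.49).

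The tubulin and the microtubule-associated members gave smaller RPF differences. Tubb2b, a beta-tubulin, had 8193, 7667 and 9114 RPFs in NT and 665, 797 and 439 in FL, a difference of 3.75 ± 0.27 (13.5-fold, adjusted p 1.9e-07) that was below its mRNA difference of 4.32, with a TE difference of -0.57 ± 0.38 (adjusted p 0.37). The authors kept reads with a single match, so reads that fit both Tubb2b and its near-identical paralog Tubb2a were left out of both, and the values of the pair are uncertain. Dcx, which stabilizes microtubules in migrating neurons, had an RPF difference of 4.64 ± 0.33 and a TE difference of 0.65 ± 0.46 (adjusted p 0.39). Over the 8 members the median TE difference was 1.11 (range -0.93 to 2.01), against 0.78 over the 74 named members and 1.22 over the 22 matched genes of the list. None was called by limma or by edgeR's quasi-likelihood test. At an unadjusted p under 0.05 limma had 4 higher in NT, against 9.33% of all genes, and DESeq2 called 4 higher in NT, against 2.55%. Of the 74 named members 32 (43.2%) had a TE difference of 1 or more, against 12.8% of all genes. High counts in the lists are thus also a feature of the named members. Without replicate 3, limma called 4 higher in NT and 1, Tubb2a, higher in FL (-1.26 ± 0.27, adjusted p 0.0044), where 39 of the 74 named members (52.7%) were called higher in NT and 13 (17.6%) higher in FL, against 22.3% and 20.7% of all genes. The list counts without replicate 3 given below are to be read against these shares.

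The kinesin Kif5a and the microtubule-associated protein Map1b, named after their values were seen, show how far replicate 3 differs. Map1b had 110154, 109326 and 51516 RPFs in NT and 1432, 1492 and 6266 in FL. NT replicate 3 was the lowest NT value and FL replicate 3 the highest FL value. The TE difference was 3.67, 2.62 and -0.27 in replicates 1 to 3, a fit of 2.01 ± 0.69 (adjusted p 0.29) and of 3.15 ± 0.35 (adjusted p 0.00026) without replicate 3. For Kif5a it was 3.25, 2.80 and -0.57, a fit of 1.83 ± 0.60 (adjusted p 0.29) and of 3.03 ± 0.38 (adjusted p 0.00043) without replicate 3.

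Of 88 listed axon guidance and adhesion genes 36 were matched and 8 are members, again all with RPFs higher in NT. Slit1, a secreted ligand of Robo receptors, had 10515, 10594 and 16598 RPFs in NT and 172, 76.7 and 212 in FL (86.5-fold, 6.43 ± 0.34, adjusted p 1.6e-08). Reln, a large secreted glycoprotein that guides neuronal positioning, had 15257, 14695 and 13399 in NT and 165, 119 and 342 in FL (76.0-fold, 6.25 ± 0.30). Celsr2, an atypical cadherin of planar polarity, had 27622, 28687 and 32837 in NT and 375, 446 and 966 in FL (54.3-fold, 5.76 ± 0.29). The tissues did not overlap for any of them, and FL replicate 3 was the highest FL value in each.

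The TE difference was above 0 for 7 of these 8 members, with Robo3 as the exception, and the median was 1.39 (range -0.50 to 2.03), against 1.27 over the 36 matched genes of the list. None was called by limma or edgeR. An unadjusted p under 0.05 was found for 7, against 9.33% of all genes for higher TE in NT. DESeq2 called 5 higher in NT, against 2.55% of all genes. It was 1.10 ± 0.49 for Slit1, 1.69 ± 0.43 for Reln and 1.41 ± 0.41 for Celsr2 (adjusted p 0.29 in each). In Reln the 3 replicates gave 2.28, 2.29 and 0.51, in Celsr2 1.81, 1.72 and 0.69. Without replicate 3, 7 of the 8 were called higher in NT and Robo3 higher in FL (-1.37 ± 0.44, adjusted p 0.029), with 1.10 ± 0.46 for Slit1 (adjusted p 0.072), 2.29 ± 0.28 for Reln (adjusted p 0.00036) and 1.76 ± 0.25 for Celsr2 (adjusted p 0.00069).

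Chl1, a neural adhesion molecule, and Ptprz1, a receptor tyrosine phosphatase of glial precursors, belong to the same list and to the 5 named members with the highest TE difference among those of 1 sign in all replicates. Chl1 RPFs were 6834, 6304 and 5604 in NT against 33.7, 91.6 and 149 in FL, and its TE difference was 4.70, 1.32 and 0.06 (fit 2.03 ± 0.72, adjusted p 0.29). Ptprz1 had 5851, 5598 and 5156 RPFs in NT and 152, 53.3 and 164 in FL, with a TE difference of 2.45, 2.18 and 1.11 (fit 1.91 ± 0.63, adjusted p 0.29). Without replicate 3 both were called, Chl1 at 3.01 ± 0.77 (adjusted p 0.011) and Ptprz1 at 2.31 ± 0.81 (adjusted p 0.039). In both genes NT RNA-Seq replicate 1 was the lowest NT value, 1319 against 4373 and 4384 normalized reads in Chl1 and 1283 against 4565 and 2960 in Ptprz1.

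Synaptic genes gave 24 matches of 78 listed and 3 members, Amph, which acts in vesicle endocytosis, Srcin1, a Src inhibitor, and Ttbk1, a tau tubulin kinase. Their RPF differences were 5.01 ± 0.36, 4.96 ± 0.35 and 4.92 ± 0.44 (30.2-fold to 32.2-fold), each called. TE differences were 1.34, 1.61 and 1.59 (adjusted p 0.29 in each). None was called by limma or edgeR. All 3 had an unadjusted p under 0.05, against 9.33% of all genes for higher TE in NT, and DESeq2 called 2, against 2.55%. In replicate 3 alone they were 0.16, -0.00 and 0.03, and without it all 3 were called higher in NT (1.92, 2.42 and 2.37, adjusted p 0.0052, 0.00057 and 0.0087).

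Ion channels and receptors gave 29 matches of 100 and 4 members. Oprl1, the nociceptin receptor, had 844, 908 and 1103 RPFs in NT and 17.6, 14.9 and 13.4 in FL, where the values are 11, 7 and 9 reads (58.3-fold, 5.86 ± 0.28, adjusted p 9.7e-09). Its TE difference of 1.71 ± 0.40 (1.48, 2.19 and 1.46 by replicate) was close to the threshold (adjusted p 0.22). Hcn3, a pacemaker channel, had 528, 477 and 716 RPFs in NT and 1.6, 17.0 and 22.4 in FL, where the first value is a single read, and a TE difference of 2.21 ± 0.86. The other two, the orphan receptor Gpr19 and the AMPA receptor auxiliary subunit Cacng4, had RPF differences of 3.32 and 3.01 beside mRNA differences of 3.17 and 3.02, and TE differences of 0.15 ± 0.43 and -0.01 ± 0.37. None of the 4 was called by limma, and 2 had an unadjusted p under 0.05, against 9.33% of all genes for higher TE in NT. Of the 4, edgeR called 1 and DESeq2 called 2 higher in NT, against 0.187% and 2.55% of all genes. Without replicate 3, limma called 2 higher in NT, Oprl1 (1.84 ± 0.41, adjusted p 0.0057) and Hcn3 (2.68 ± 1.01, adjusted p 0.051).

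Radial glia and neuroepithelial genes gave 20 matches of 59 and 3 members, Fabp7, the membrane glycoprotein Gpm6a and the endothelin receptor Ednrb. All had RPFs higher in NT, and their TE differences were 1.49, 0.33 and -0.64. None was called by limma or edgeR. Higher TE in NT was found for 1 at an unadjusted p under 0.05, against 9.33% of all genes, and for 1 by DESeq2, against 2.55%. Without replicate 3, limma called 1, Ednrb, higher in FL (-1.06 ± 0.57, adjusted p 0.15). Of 85 listed postmitotic factors and RNA-binding proteins 10 were matched and 1 is a member, the neuronal splicing factor Nova1, with 2906, 2883 and 2621 RPFs in NT and 62.5, 70.3 and 62.7 in FL (42.4-fold, 5.41 ± 0.26, adjusted p 8.9e-09). Its TE difference was 1.43 ± 0.36 and positive in every replicate (2.48, 1.06 and 0.76, adjusted p 0.29). Of 68 listed patterning and progenitor factors 6 were matched and none is a member. The unmatched ones may lie among the members without a symbol. Hoxb4, Hoxc4 and other Hox genes are members but were not on that list. By limma Nova1 was not called, its unadjusted p was under 0.05, edgeR did not call it and DESeq2 did. Without replicate 3, limma called it higher in NT (1.77 ± 0.38, adjusted p 0.0048).

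Map3k13, also known as leucine zipper kinase and part of a neuronal stress pathway (chromosome 16, 21794346 to 21933439, + strand), had the highest TE difference of all members. Its mRNA was 1347, 1605 and 1610 normalized reads in NT and 214, 154 and 165 in FL. Its RPFs were 2299, 2205 and 1397 in NT against 16, 21.3 and 65.7 in FL, so the 8.57-fold mRNA difference stood beside a 65.4-fold RPF difference. The TE difference was 2.93 ± 0.58 (adjusted p 0.13), and 4.43, 3.26 and 1.11 in replicates 1 to 3. It was called under 9 of 23 alternatives (adjusted p 2.9e-06 to 0.99) and in 3 of the 15 that left out libraries, each of which left out a replicate 3 Ribo-Seq library. Without that number the estimate was 3.84 ± 0.37 (adjusted p 0.00013). With a replicate block the call was lost (adjusted p 0.28 over all conditions and 0.26 within tissue). Another annotated gene, 2610020F03Rik, overlaps up to 54 bases of its coding exons.

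Phf21b, a PHD finger protein (chromosome 15, 84785381 to 84856049, - strand), falls outside the naming rule and was named because it was called. Its mRNA was 6379, 5597 and 6203 normalized reads in NT and 278, 258 and 221 in FL, and its RPFs 3159, 3427 and 3810 in NT and 64.1, 40.5 and 47.8 in FL. All replicates were close to each other, and replicate 3 lay between the others in TE difference (1.09, 1.93 and 1.48). The fit was 1.5 ± 0.30 (2.83-fold, adjusted p 0.13), and 1.51 ± 0.33 without replicate 3. It was called under 10 of 23 alternatives (adjusted p 0.0013 to 0.99) and in 4 of the 15 that left out libraries. With a replicate block the call was lost (adjusted p 0.28 over all conditions and 0.26 within tissue). TE relative to the all-gene median was -0.84 ± 0.15 in NT, -2.32 ± 0.30 in FL (SD, n = 3) and -1.67 in the mesoderm, low in all 3 tissues.

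The remaining members with high TE differences were Slco5a1, an organic anion transporter family member, and Hcn3. Slco5a1 RPFs were 1536, 1279 and 1257 in NT against 4.8, 10.7 and 40.3 in FL, where the values are 3, 5 and 27 reads. Its TE difference was 4.18, 2.17 and 0.36 by replicate (fit 2.24 ± 0.75, adjusted p 0.29, and 3.18 ± 0.55, adjusted p 0.0017, without replicate 3). In FL the fit without replicate 3 rests on Ribo-Seq values of 3 and 5 reads. FL replicate 3 was again the highest FL value, as in Map3k13, Chl1, Ptprz1 and Hcn3.

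Rtn2, a reticulon that shapes the endoplasmic reticulum (chromosome 7, 19282624 to 19296160, + strand), was the single member whose RPFs were not called higher in NT. Its mRNA was 2976, 2451 and 3397 normalized reads in NT and 250, 271 and 202 in FL, a 12.1-fold difference. Its RPFs were 569, 526 and 658 in NT against 555, 712 and 258 in FL. The RPF groups overlapped, and the RPF difference of 0.32 ± 0.32 (95% interval -0.37 to 1.00, adjusted p 0.43) did not pass and was -0.20 without replicate 3. The TE difference was -3.53, -3.61 and -2.72 in the 3 replicates, with a fit of -3.29 ± 0.45 (9.76-fold higher in FL, adjusted p 0.03), and -3.57 ± 0.28 without replicate 3. It was called under 21 of 23 alternatives (adjusted p 1.3e-09 to 0.99), and the calls were lost without replicate 1 and without replicate 2, where the estimates were -3.16 and -3.13. Relative to the all-gene median, TE was -2.35 ± 0.10 in NT and 0.95 ± 0.54 in FL (SD, n = 3), and -0.50 in the mesoderm. No other annotated gene overlaps its coding exons.

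The other 4 named members with the lowest TE differences of 1 sign in all replicates had RPFs that remained higher in NT. Hoxb4, a homeodomain factor of the neck and upper trunk (chromosome 11, 96318267 to 96321638, + strand), had 1170, 1102 and 1532 RPFs in NT and 86.6, 237 and 103 in FL (9.71-fold, adjusted p 4.7e-06) beside an mRNA difference of 4.33, a TE difference of -1.05 ± 0.47. Its paralog Hoxc4 (chromosome 15, 103018934 to 103036852, + strand) had 1300, 1321 and 2140 in NT and 261, 367 and 218 in FL (5.59-fold, adjusted p 2.9e-05), a TE difference of -1.21 ± 0.43. Gadd45g, a growth arrest and stress response gene, and Ccdc64, a dynein adaptor annotated as Bicdl1, had TE differences of -1.03 ± 0.41 and -1.22 ± 0.47. None of the 4 passed (adjusted p 0.29 in each), and in replicate 3 Hoxc4 stood at -0.01 and Gadd45g at -0.17. Without replicate 3 all 4 were called higher in FL, Hoxc4 at -1.81 ± 0.38 (adjusted p 0.0042), Gadd45g at -1.47 ± 0.37 (adjusted p 0.01), Ccdc64 at -1.36 ± 0.57 (adjusted p 0.075) and Hoxb4 at -1.18 ± 0.57 (adjusted p 0.11). Hox members had no common sign. Named after their values were seen, Hoxd3 stood at 1.32 ± 0.34, Hoxa2 at 1.34 ± 0.68, Hoxb3 at 0.32 ± 0.38 and Hoxb2 at -0.54 ± 0.47, none called. Leaving out replicate 3, limma called Hoxd3 (1.06 ± 0.32, adjusted p 0.022) and Hoxa2 (1.44 ± 0.77, adjusted p 0.15) higher in NT.

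At the threshold, the nearest named members inside it were Rasl10b and Nrarp, with mRNA differences of 3.01 and 3.02, and the nearest named genes outside it Atl1 and Hoxc6, with 2.98 and 2.96. Their RPF differences were 4.82, 2.23, 4.63 and 1.24, and their TE differences 1.81, -0.79, 1.65 and -1.72 in the same order. Hoxc6, which is not a member, passed the TE test as higher in FL (-1.72 ± 0.38, limma, adjusted p 0.16), against 0.125% of all genes. Rasl10b, Nrarp and Atl1 did not pass (adjusted p 0.34, 0.29 and 0.29). Without replicate 3, Rasl10b was called higher in NT (2.74 ± 1.12, adjusted p 0.068). Rasl10b holds the only member value of 0 reads, in FL Ribo-Seq replicate 1, with 3 and 14 reads in the other two FL libraries.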

How the data were processed

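The authors trimmed adapters with cutadapt, aligned reads with Bowtie2, kept those with a single match and counted them on coding sequences of canonical UCSC transcripts (mm10), leaving out the first and last codons. The deposited values are a signal in normalized reads, that is, counts divided by DESeq size factors. In all 18 libraries 100.0% of values were whole multiples of the worth of 1 read (tolerance 0.0052), so reads could be recovered for count tests. Differences were fitted with limma 3.58.1 (R 4.3.3, trend) on log2(normalized reads + 1) over the 12 NT and FL libraries as 4 conditions, with Benjamini-Hochberg adjustment over all genes. TE is Ribo-Seq minus RNA-Seq, and the TE difference is the interaction, called at the thresholds of the study's methods (adjusted p under 0.2, 2-fold). Mesoderm TE was fitted with replicate number as a block. The fits were tested on simulated data in which no replicate stood apart, so that test does not bear on calls that depend on replicate 3. Alternatives were other pseudocounts, a filter at a mean of 100 normalized reads, left-out libraries, a replicate block, other membership thresholds, edgeR 4.0.16 and DESeq2 1.42.0.

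Named genes were members with a symbol: up to 4 per functional list by mRNA difference, the 5 largest mRNA differences, the 5 highest and 5 lowest TE differences of 1 sign in all 3 replicates averaging 100 or more normalized reads in Ribo-Seq, and 2 genes on each side of the threshold. The members and lists were chosen with earlier results of these data known. NT and FL libraries of the same number did not deviate in the same direction, so the numbers were not taken as pairs. Pearson's r of deviations from the group mean was -0.58 to -0.29 in Ribo-Seq, that is, opposite, and -0.24 to -0.02 in RNA-Seq. Between Ribo-Seq and RNA-Seq of the same number and tissue it was -0.28 to 0.35. Fits with a replicate block are given as alternatives. Gene positions are from GENCODE M21 (GRCm38), matched by symbol. P-values measure the spread between these samples. In the limma fit of NT and FL each gene has 1 spread, pooled over RNA-Seq and Ribo-Seq of both tissues and moderated by the trend. The SE and p of an RPF difference thus do not measure the spread of the Ribo-Seq libraries alone.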

Additional observations from a re-analysis of the deposited data

Results flagged for a closer look

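The TE difference of 3 named members passed the interaction test between the tissues (limma, adjusted p under 0.2) with 1 sign in all 3 replicate numbers. Map3k13 had a log2 TE difference, NT minus FL, of 2.93 (95% interval 1.68 to 4.19), Phf21b one of 1.5 (95% interval 0.85 to 2.15) and Rtn2 one of -3.29 (95% interval -4.25 to -2.32). With a replicate block the calls of Map3k13 and Phf21b were lost and that of Rtn2 was kept. When libraries were left out, Map3k13 was called in 3 of 15 fits, Phf21b in 4 and Rtn2 in 13. The mRNA contrast in this interaction took part in choosing the members, and none of the values is independent of that choice.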

How the results depend on the processing

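RPFs remained higher in NT for 224 to 225 members when libraries were left out, and the median RPF difference ranged from 4.48 to 4.66 and the median TE difference from 0.08 to 0.32. The number of members ranged from 220 to 247. TE calls ranged from 0 to 55 in NT (12 to 56 at an unadjusted p under 0.05) and from 0 to 31 in FL. The mesoderm median ranged from -0.03 to 0.03. Without the FL replicate 3 Ribo-Seq library alone the TE calls were 54 and 21 (19.8% and 16.5% of all genes), and without that of NT 36 and 16 (15% and 11.1% of all genes). With Ribo-Seq numbers 1 and 2 and all RNA-Seq libraries, chosen after seeing the data, they were 49 and 34 (22.2% and 20.4% of all genes), with an RPF median of 4.59. DESeq2 called 21 and 7 (RPF median 4.48) and edgeR 3 and 1. The RPF median was 4.42 with a pseudocount of 8 and 4.57 after centring. With a replicate block, over all conditions or within tissue, limma called 0 members higher in NT (37 at an unadjusted p under 0.05) and 1 higher in FL, and gave no other changed call among the counts. A threshold of 2 (300 of 461 genes kept) gave 4 and 3 TE calls and an RPF median of 4.1. A threshold of 4 gave 111 members, 111 with RPFs higher in NT, 1 TE call in NT, 0 in FL (3 at an unadjusted p under 0.05) and an RPF median of 5.36. With NT RNA of at least 1000 the RPF median was 4.77 (185 members). In held-out replicates 1 and 2 it was 4.42 and 4.45, and in held-out replicate 3 the TE median was 0.4. No value over the members changed sign, apart from the mesoderm median, which lies near 0. For 36 of the named members, 111 alternative values gained a call, 29 lost one (TE calls, 14 of Map3k13, 13 of Phf21b and 2 of Rtn2) and 1552 did neither. The causes were not tested. Held-out replicates carry no test, and the block within tissue gives no RPF value. Depth limits the FL values, since the rule chose members low in FL mRNA: 24 members had under 10 reads in at least 1 FL Ribo-Seq library.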
